A study of Mus musculus with 31 samples.

Results

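Messenger RNA of mouse cortex was compared between S6K1 knockout mice, which are deficient in Rps6kb1, and wild-type mice (WT). The comparison rests on 8 of the 31 libraries of the study, 4 of S6K1 knockout cortex and 4 of WT cortex, chosen by the genotype and assay in their labels. All mice were 29 to 34 days old, and dissected cortices were lysed before polyadenylated RNA was sequenced. The 8 libraries belong to batches 5, 6, 7 and 8, each of which held 1 library of every genotype, so batch entered the model as a block. The other 8 mRNA libraries came from cortex of mice deficient in Fmr1 (FXS) or in both Fmr1 and Rps6kb1 (DKO). Another 15 libraries held ribosome footprints, the fragments of mRNA that ribosomes shield from nuclease. The footprints compared below were 3 libraries of S6K1 knockout and 4 of WT cortex, and some of their batches did not hold both genotypes. The allele of either knockout, the sex and the strain are not named in the sources used here, nor is it said whether libraries of 1 genotype came from separate animals. P-values therefore measure only the spread between these libraries.

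S6K1, encoded by Rps6kb1, is a kinase of ribosomal protein S6 that is switched on by mTORC1, the complex through which growth factors, amino acids and synaptic activity control protein synthesis. It also phosphorylates factors of translation initiation and elongation, and through other substrates it acts on nucleotide and lipid synthesis and feeds back on insulin signalling. A second gene, Rps6kb2, encodes the related kinase S6K2. In the brain, mTORC1 and S6 kinases are best known for their part in the protein synthesis that long-lasting synaptic plasticity needs, and excess signalling through this pathway has been described in Fmr1 mutant mice.

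Total counts over coding sequence were 13.1 M ± 0.813 M (SD, n = 4) in WT and 13.9 M ± 1.22 M (n = 4) in the S6K1 knockout, and 15801 to 16162 genes had a count in a library. Batch 5 stood apart in both genotypes. Its summed level of 22 microglia and macrophage markers was 375 CPM in WT and 294 in the knockout, against 914 to 1065 in the other 6 libraries. All 4 Y-linked genes looked up were detected in all 8 libraries, with Ddx3y between 41.2 and 49.1 CPM. Values per library are given below in the order of batches 5, 6, 7 and 8, in CPM scaled by TMM, and log2 fold changes are knockout against WT.

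Of 14215 genes tested, 51.2% had a fitted change above 0 and 3 were called (edgeR quasi-likelihood test, p adjusted by Benjamini-Hochberg and under 0.05), which is 0.0211% of them: Rps6kb1 itself and Epx fell, and Rad51d rose. At an unadjusted p under 0.05 there were 1048 genes (7.37%), with 532 higher (3.74%) and 516 lower (3.63%) in the knockout. The 95% interval of the fold change lay within 1.5-fold in either direction for 11268 genes (79.3%), so for most of the genes tested a larger change of mRNA lies outside the interval. The median log2 fold change over all genes was 0.004.

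Rps6kb1 mRNA was at 55.5, 43.4, 47.3 and 39.5 CPM in WT and at 43.7, 31.95, 30.5 and 28.2 CPM in the knockout. It was lower in the knockout within each of the 4 batches, but the groups overlapped, because the knockout library of batch 5 lay above the WT libraries of batches 6 and 8. The knockout was lower by a log2 fold change of -0.47 ± 0.0774 (SE), with an adjusted p of 0.0217. Reads over the coding sequence thus remained in every knockout library, and which exons the allele removes is not given in the sources used here. Footprints of Rps6kb1, counted in other libraries, changed by -1.63 ± 0.137, and Rps6kb1 was the only gene called in footprints of S6K1 against WT (0.00717% of 13953 tested). The gene lies on chromosome 11 at chr11:86498869-86544885 (RefSeq, GRCm38.p6, the assembly also called mm10). The call of Rps6kb1 was lost when any 1 library other than S6K1 replicate 1 was left out, with adjusted p from 0.0521 to 0.190, and without batch 5 (0.236), without the replicate block (1.00) and with WT and S6K1 libraries fitted alone (0.131). The fold change stayed between -0.53 and -0.43 throughout.

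Rps6kb2, which codes for S6K2, was not higher in the absence of S6K1. Its mRNA was at 32.2, 24.8, 24.2 and 31.9 CPM in WT and 24.7, 20.6, 21.4 and 24.8 CPM in the knockout. The knockout value was the lower one in all 4 batches, the groups overlapped, and the log2 fold change of -0.30 ± 0.0978 did not pass the test (p 0.00522, adjusted p 0.570). The fitted 95% interval ran from -0.50 to -0.099. In DKO against FXS, which compares other libraries, the change was -0.21 ± 0.0962 (p 0.0370, not called), and in footprints of S6K1 against WT it was -0.34 ± 0.177 (p 0.0713).

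**Figure D1:**
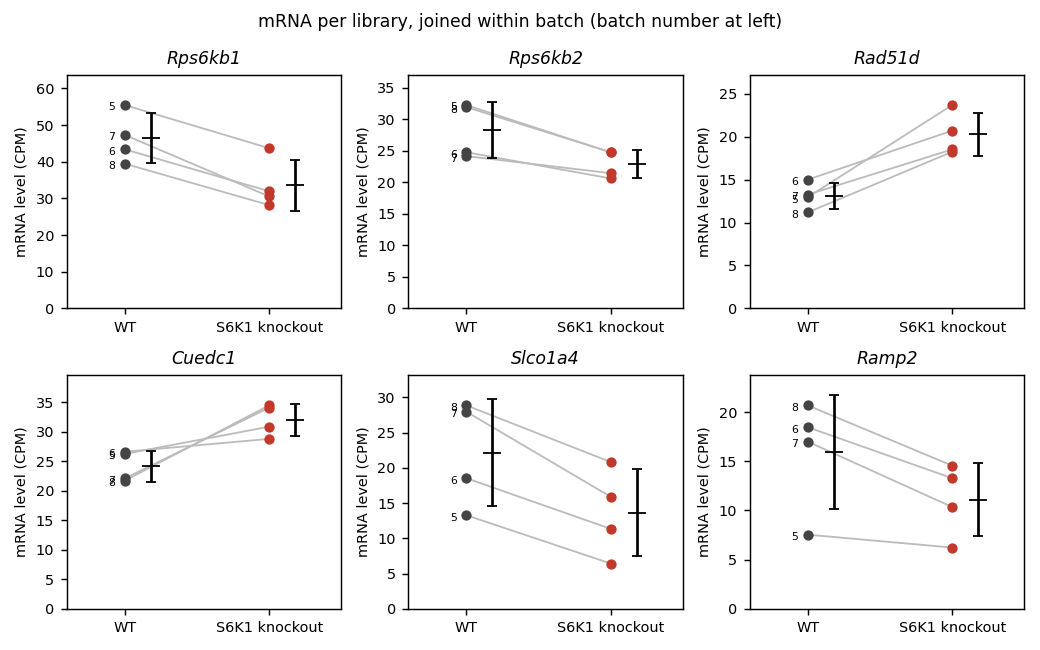
mRNA level in CPM (vertical axes, from 0) of 6 genes in the 4 WT and 4 S6K1 knockout libraries; grey lines join libraries of 1 batch, numbers give the batch, and black marks show the mean ± SD of each group. Rps6kb1 lies lower in the knockout in all 4 batches although the groups overlap, while Rad51d (11.2 to 14.99 CPM in WT, 18.2 to 23.7 in the knockout) and Cuedc1 do not overlap.

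Rad51d, whose product takes part in repair of DNA by homologous recombination, was the only called gene that was higher. It was at 12.9, 14.99, 13.2 and 11.2 CPM in WT and 23.7, 20.7, 18.5 and 18.2 CPM in the knockout. Every knockout library lay above every WT library. The log2 fold change was 0.64 ± 0.103 (adjusted p 0.0217), and 0.49 ± 0.1004 in DKO against FXS (unadjusted p 6.33e-05). Its footprints did not share the direction, with a change of -0.18 ± 0.117 (p 0.151). The call was lost when any 1 library other than WT replicate 2 was left out, with adjusted p from 0.0521 to 0.201, and without batch 5 (0.440), without the replicate block (0.417) and with WT and S6K1 libraries fitted alone (0.160). Rad51d (chr11:82871960-82890624) lies next to Rffl, which codes for an E3 ubiquitin ligase and had a change of 0.38 ± 0.156 (p 0.0246), and next to Fndc8, with -1.68 ± 0.641 (p 0.0150) at means of 0.806 CPM in WT and 0.242 in the knockout. Whether reads were counted by strand is not given in the sources used here, so reads of overlapping or antisense transcripts may be included.

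Epx codes for eosinophil peroxidase, an enzyme of eosinophil granules that also belongs to the list of blood cell markers. It had 9, 8, 10 and 20 counts in the WT libraries and 0, 0, 0 and 1 in the knockout libraries. The groups did not overlap, and the ratio of the summed counts, scaled for depth, was 0.0201 (exact 95% interval 0.000498 to 0.117, counting error only; adjusted p 0.0328). FXS libraries held 43 counts in all and DKO libraries 2. The call of Epx was lost when any 1 library other than WT replicate 2 was left out, with adjusted p from 0.102 to 0.196, as well as without batch 5 (0.440) and without the replicate block (0.182). Of the 8 blood cell markers tested, Epx alone had an unadjusted p under 0.05, and the summed level of the 18 markers in the table ran from 1256 to 1868 CPM in WT and from 1071 to 2682 CPM in the knockout.

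**Figure D2:**
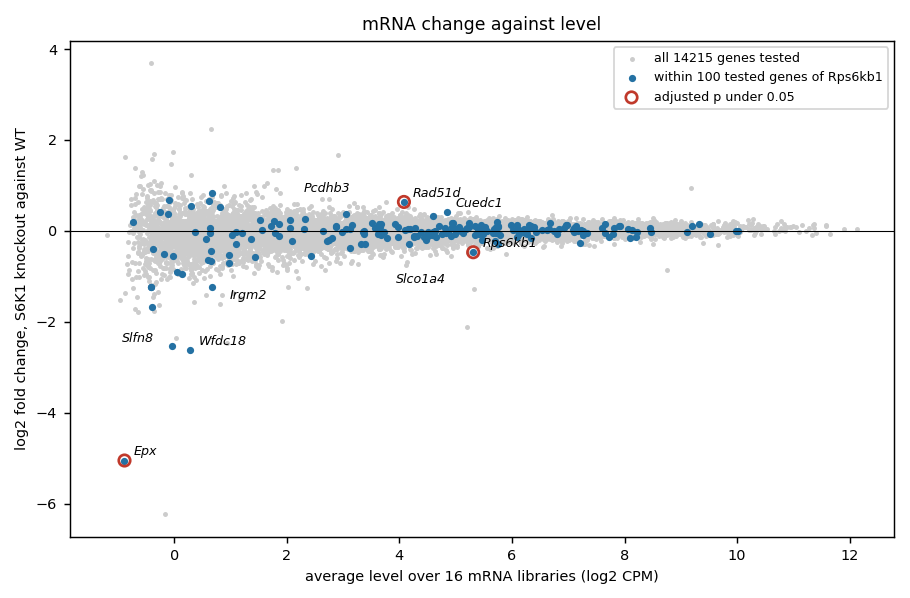
Log2 fold change of mRNA in the S6K1 knockout against WT (vertical axis) against the average level over the 16 mRNA libraries in log2 CPM (horizontal axis), 1 point a gene. The 14215 points close in on 0 at high levels. Circles mark the 3 called genes, which are Rps6kb1 itself and 2 genes within 100 tested genes of it (blue).

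The 2 called genes other than Rps6kb1 lie on chromosome 11 too, near the disrupted gene. Among the 30 genes of smallest p, Rps6kb1 included, 15 were on chromosome 11, which holds 8.13% of the genes tested. Of the 30, 7 lay in a window of 100 tested genes on either side of Rps6kb1, again with Rps6kb1 itself. This window, from 78 to 97.4 Mb, holds 1.41% of the genes tested. In this window 31 of 200 genes without Rps6kb1 (15.5%, exact 95% interval 10.8 to 21.3) had an unadjusted p under 0.05, 10 higher and 21 lower in the knockout. The share was 19% within 50 tested genes, 8.41% over the rest of chromosome 11 and 7.17% over all other chromosomes. At an unadjusted p under 0.001 the shares were 3% in the window, 0.841% over the rest of chromosome 11 and 0.138% elsewhere. Neighbouring genes are not independent samples, and 1 pair of the 31, Evi2b and Gm21975, held the same values in the 8 libraries compared and have overlapping coordinates. For DKO against FXS, 14% of the window and 9.74% of the genes on other chromosomes had an unadjusted p under 0.05. The share in the window of S6K1 against WT fell to 7% without the replicate block, 9.47% with WT and S6K1 libraries fitted alone, 10.6% without batch 5, 8.5% without WT replicate 1 and 10% without S6K1 replicate 2. In the same 5 fits, genes higher at p under 0.05 made up 1.28%, 1.87%, 3.35%, 2.16% and 3.05% of all genes tested, and those lower 1.32%, 3.81%, 2.58%, 3.19% and 3.15%.

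Among the tested genes nearest to Epx, the odorant receptor gene Olfr464 on one side changed by -1.25 ± 0.367 (p 0.00248), with means of 2.32 CPM in WT and 1.00 in the knockout. On the other side Mks1, which codes for a protein of the ciliary transition zone, changed by 0.10 (p 0.619), and beyond it the lactoperoxidase gene Lpo by -0.66 ± 0.296 (p 0.0361). Slfn8, of a family of growth-regulatory and interferon-induced genes, had 22, 6, 15 and 26 counts in WT and 4, 2, 1 and 5 in the knockout, a ratio of 0.164 (0.0809 to 0.305). The groups did not overlap, and the adjusted p was 0.141. Slfn8 was called in DKO against FXS, where the counts were 12 in DKO and 100 in FXS. Its neighbour Slfn9 held 42 counts in the knockout and 30 in WT, and reads may be split unevenly between such related copies, so both values are uncertain. Wfdc18, which codes for a protein with a WAP domain, had 29, 20, 8 and 34 counts in WT and 1, 6, 6 and 2 in the knockout, a ratio of 0.156 (0.0836 to 0.270). These groups did not overlap either, and the adjusted p was 0.141. In DKO against FXS the counts of Wfdc18 were 43 and 98. The interferon-induced GTPase gene Irgm2, on chromosome 11 but outside the window, had 132 counts in WT and 47 in the knockout, a ratio of 0.336 (0.236 to 0.472), and 85 in DKO against 110 in FXS. Slfn8, Slfn9, Wfdc18, Irgm2, Rffl, Fndc8, Mks1, Lpo and Olfr464 were singled out after their values were seen.

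Cuedc1, which codes for a protein with a ubiquitin-binding CUE domain and lies 1.62 Mb from Rps6kb1 (chr11:88099146-88194140), was at 26.2, 26.6, 22.1 and 21.7 CPM in WT and 30.8, 28.8, 34.1 and 34.4 CPM in the knockout. The groups did not overlap. The change was 0.41 ± 0.0972 (adjusted p 0.316), and in DKO against FXS it was 0.63 ± 0.0959 and was called (adjusted p 0.0133). Footprints of Cuedc1 changed by 0.35 ± 0.153 (p 0.0377). Luc7l3, a factor of pre-mRNA splicing in the same window, was at 196, 165, 162 and 164 CPM in WT and 168, 132, 132 and 142 CPM in the knockout. Its groups overlapped only through the knockout library of batch 5, with a change of -0.26 ± 0.0655 (adjusted p 0.408) and -0.24 ± 0.0656 in DKO against FXS.

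**Figure D3:**
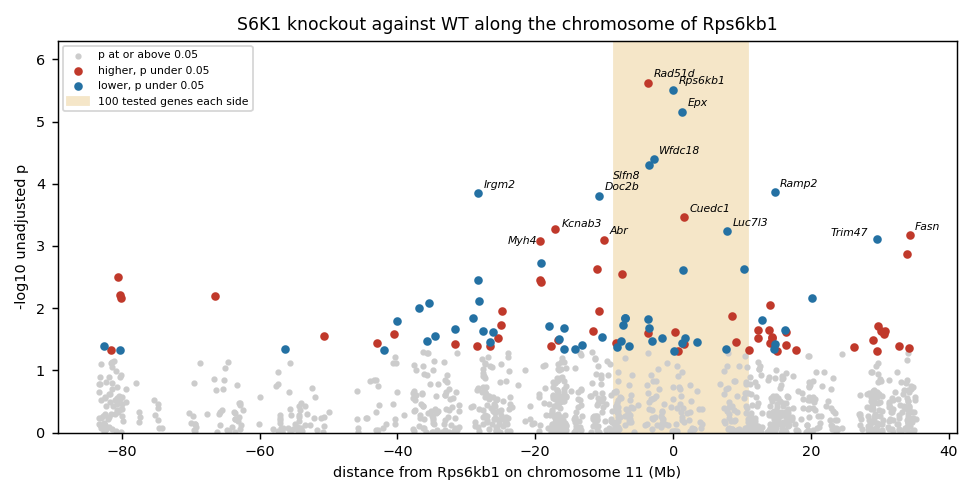
Minus log10 of the unadjusted p of S6K1 knockout against WT (vertical axis) for the tested genes of chromosome 11, against the distance of each gene from Rps6kb1 in Mb (horizontal axis). Red and blue points are genes higher and lower at p under 0.05, names mark p under 0.001, and the shaded band is the window of 100 tested genes each side, where 15.5% of genes have p under 0.05 against 8.41% over the rest of the chromosome.

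Outside the called genes, 16 genes with a mean of at least 5 CPM and the same direction in all 4 batches were taken by smallest p, 8 higher and 8 lower, and none of them passed the adjusted threshold. Over all genes tested, 7.60% were higher and 6.73% lower in all 4 batches. Besides Cuedc1, the higher ones were Pcdhb3, Pstpip2, Zmiz1, AW551984, Kcnab3, Fasn and Ncdn. Pcdhb3, a clustered protocadherin that acts in recognition between neurons, was at 4.18, 7.34, 8.58 and 8.92 CPM in WT and 5.14, 13.2, 12.2 and 14.6 in the knockout. The groups overlapped through batch 5, which was low in both, and the change was 0.61 ± 0.128 (adjusted p 0.185). Its paralogs Pcdhb6 and Pcdhb8, named after their values were seen, had changes of 1.06 ± 0.239 and 0.93 ± 0.210 (adjusted p 0.200 for each), and reads can be split among these closely related genes.

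Pstpip2, an adaptor of the actin cytoskeleton best known from macrophages, was at 12.1, 14.99, 9.41 and 8.71 CPM in WT and 16.6, 22.02, 18.1 and 13.4 in the knockout, with overlap, and changed by 0.64 ± 0.137 (adjusted p 0.185). DKO against FXS gave 0.46 ± 0.136 (p 0.00277). Zmiz1, a coregulator of transcription, changed by 0.29 ± 0.0701, and by 0.048 ± 0.0687 in DKO against FXS. Kcnab3, a beta subunit of voltage-gated potassium channels, was at 64.01, 79.99, 75.9 and 68.8 CPM in WT and 91.8, 95.5, 87.3 and 79.2 in the knockout, and changed by 0.30 ± 0.0735 (adjusted p 0.395) and by 0.29 ± 0.0734 in DKO against FXS. Only the knockout library of batch 8 lay inside the WT range. Ncdn, which codes for neurochondrin, a neuronal protein, averaged 1118 ± 231 CPM (SD) in WT and 1336 ± 248 in the knockout, with a change of 0.27 ± 0.0692. AW551984 averaged 8.79 ± 1.68 and 12.8 ± 3.93 CPM, with a change of 0.52 ± 0.129.

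The 8 lower genes were Slco1a4, Ramp2, Doc2b, Ccnl2, Luc7l3, Ucp2, Vim and Pamr1. Slco1a4, an organic anion transporter of the blood-brain barrier, was at 13.3, 18.5, 27.98 and 28.9 CPM in WT and 6.42, 11.3, 15.9 and 20.8 CPM in the knockout. It was lower in the knockout within each batch, while the groups overlapped. The change was -0.74 ± 0.153 (adjusted p 0.185), and of 15 alternatives DESeq2 alone called it (adjusted p 0.00822). Ramp2, the accessory protein of the adrenomedullin receptor in endothelium, was at 7.53, 18.5, 16.99 and 20.7 CPM in WT and 6.22, 13.3, 10.3 and 14.6 CPM in the knockout. Here too the batch 5 libraries were the lowest of their groups, and the change was -0.50 ± 0.110 (adjusted p 0.200), with -0.32 ± 0.108 in DKO against FXS.

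Vim, the intermediate filament vimentin of endothelial, glial and meningeal cells, was at 30.7, 37.3, 36.6 and 38.5 CPM in WT and 20.8, 25.1, 29.01 and 32.6 in the knockout, a change of -0.43 ± 0.109 (adjusted p 0.419). Ucp2, a mitochondrial carrier of the uncoupling protein family, changed by -0.37 ± 0.0930, but by -0.044 ± 0.0919 in DKO against FXS. Doc2b, a calcium sensor of transmitter release on chromosome 11, was at 29.9, 19.7, 22.8 and 22.3 CPM in WT and 21.3, 13.1, 15.4 and 18.02 in the knockout, a change of -0.48 ± 0.107 (adjusted p 0.200). Ccnl2, a cyclin associated with splicing, was at 72.98, 48.7, 42.97 and 67.8 CPM in WT and 53.1, 36.7, 37.1 and 50.3 in the knockout, with a change of -0.38 ± 0.0871 (adjusted p 0.200) and -0.33 ± 0.0865 in DKO against FXS. Pamr1 averaged 55.5 ± 14.95 CPM in WT and 45.01 ± 14.6 in the knockout, and its change of -0.33 ± 0.0853 stood beside -0.065 ± 0.0836 in DKO against FXS.

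Of 61 genes of the mTORC1 and S6 kinase pathway, 1 was called, Rps6kb1 itself. At an unadjusted p under 0.05, 2 were higher (Mtor and Telo2, 3.28%) and 3 lower (Rps6kb1, Rps6kb2 and Rragc, 4.92%), against 3.74% and 3.63% of all genes, so these shares were near the background. The median log2 fold change was 0.010, against 0.004 over all genes, and for 59 of the 61 the 95% interval lay within 1.5-fold. Mtor, the kinase of both mTOR complexes, was at 86.5, 103, 123 and 120.2 CPM in WT and 98.04, 127, 124 and 158 CPM in the knockout. It was higher in all 4 batches with overlapping groups, a change of 0.23 ± 0.0750 (adjusted p 0.577), against -0.013 ± 0.0744 in DKO against FXS. Rptor, which brings substrates to mTORC1, changed by 0.057 ± 0.0765. The 2 genes of the inhibitory tuberous sclerosis complex changed by -0.059 ± 0.0790 (Tsc1) and 0.045 ± 0.0730 (Tsc2). Rheb, the GTPase that this complex restrains, changed by -0.082 ± 0.0718. Each of these 4 had an adjusted p of at least 0.852.

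Genes listed as substrates of S6K1 were near WT at the level of mRNA. Of 26 tested, 3 were higher at an unadjusted p under 0.05 (Mtor, Trim28 and Mad1l1) and 1 was lower (Uri1). None was called, and all 26 intervals lay within 1.5-fold, around a median of 0.071. Whether Mad1l1 codes for a substrate of S6K1 was not established here. Over all genes 3.74% were higher and 3.63% lower, and the number of listed genes higher at this p ran from 1 to 5 over 15 alternatives. Eif4b, a cofactor of the helicase that unwinds mRNA at initiation, was at 178, 187, 189.6 and 196 CPM in WT and 246, 208, 192 and 178 in the knockout, with a change of 0.13 ± 0.0801. The knockout libraries of batches 5 and 6 lay above all WT libraries and those of batches 7 and 8 within the WT range. Eef2k, the kinase that inhibits elongation factor 2, changed by 0.076 ± 0.0933. Pdcd4, an inhibitor of the initiation helicase, changed by -0.021 ± 0.0668. Poldip3, which ties S6K1 to newly spliced mRNA, changed by 0.12 ± 0.0730, Irs1, the adaptor of the insulin receptor, by 0.11 ± 0.158, and Srpk2, a splicing kinase that promotes lipogenic mRNAs, by 0.048 ± 0.0617. Fmr1, whose product is itself a substrate of S6K1, changed by 0.11 ± 0.106 (adjusted p 0.871). Trim28, a corepressor of transcription, was at 164, 198, 188 and 195 CPM in WT and 202, 222, 199.9 and 219 in the knockout, without overlap, and changed by 0.18 ± 0.0606 (adjusted p 0.591). Over all genes tested, 0.788% had all knockout values above all WT values and 0.816% all below.

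Factors of translation showed small differences of mRNA, and the counts below stand against 3.74% of all genes higher and 3.63% lower at the same p. Among 24 genes of the cap-binding complex and its 4E-BP inhibitors, 3 were higher and 0 lower at an unadjusted p under 0.05 (Larp1, Eif4h and Eif4e3), with a median of 0.048. Larp1, the protein that binds the cap and start of ribosomal protein mRNAs, was at 73.8, 72.4, 71.96 and 77.7 CPM in WT and 85.1, 75.9, 78.3 and 87.4 in the knockout, a change of 0.14 ± 0.0659 (adjusted p 0.657). The 4E-BP genes Eif4ebp1 and Eif4ebp2 changed by -0.033 ± 0.248 and 0.037 ± 0.167. Of 40 initiation and elongation factors, 4 were higher and 0 lower (Eif3c, Eif3b, Eef1e1 and Eef2), with a median of 0.037 and all 40 intervals within 1.5-fold. Over 15 alternatives the number of these factors higher ran from 0 to 6, the number lower from 0 to 3 and the median from -0.024 to 0.066. Eif3b, a core subunit of the initiation factor eIF3, was at 158, 165, 169.8 and 168 CPM in WT and 187, 182, 181 and 170.1 in the knockout, without overlap, a change of 0.13 ± 0.0598 (adjusted p 0.667), against -0.0089 ± 0.0595 in DKO against FXS. Of 58 genes of ribosome biogenesis, 5 were higher and 2 lower, with Dkc1, the pseudouridine synthase of ribosomal RNA, at 0.28 ± 0.0810, Rrp1, a processing factor of the large subunit, at 0.15 ± 0.0599 and Mphosph10, a processing factor of the small subunit, at -0.20 ± 0.0803. None of these genes was called.

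Messenger RNAs of ribosomal proteins begin with a C followed by further C and T, the 5' terminal oligopyrimidine (TOP) tract through which mTORC1 controls their translation, and they are shown because S6 kinases were long studied for that control. The tract was looked for on the gene's own strand only, as a C at the annotated RefSeq start with at least 4 more bases that are each C or T. Where a gene had several starts, the longest tract was taken. It was present at 320 of 10751 tested genes with a start in the RefSeq table (2.98%, GRCm38.p6) and at 14 of 60 ribosomal protein genes with one (23.3%). A missing match says only that these letters do not stand at the annotated base. Besides Rps6, the genes Fau, Rpl15 and Rpl35 were picked because their tracts were among the longest of the ribosomal protein genes. Each line gives 10 bases before the annotated start and 20 from it on, 5' to 3' on the gene's strand, with the tract in capitals. The positions are chr4:86857348-86857377 (minus strand) for Rps6, chr19:6057937-6057966 (plus) for Fau, chr14:18270967-18270996 (minus) for Rpl15, chr2:39005112-39005141 (minus) for Rpl35 and chr11:86544788-86544817 (minus) for Rps6kb1. The 1 start of Rps6kb1 in the RefSeq table holds no tract. It lies inside the gene span given above, and the end of that span was not searched.
Rps6: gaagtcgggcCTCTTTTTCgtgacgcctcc
Fau: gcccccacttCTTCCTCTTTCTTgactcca
Rpl15: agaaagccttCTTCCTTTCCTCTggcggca
Rpl35: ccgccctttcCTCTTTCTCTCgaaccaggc
Rps6kb1: gcgccggagctgaacttgaggagccagtct

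No ribosomal protein gene was called, and 0 of the 81 tested had an unadjusted p under 0.05 in edgeR. Their median log2 fold change was -0.037, their range -0.19 to 0.076, and all 81 intervals lay within 1.5-fold. The 4 batches disagreed: the median difference was 0.12 in batch 5, -0.016 in batch 6, 0.13 in batch 7 and -0.37 in batch 8. Rps6, the S6 protein that S6K1 phosphorylates, was at 633, 720.4, 624 and 669.7 CPM in WT and 746, 707, 693 and 527 CPM in the knockout. The knockout library of batch 8 was the lowest and that of batch 5 the highest of the 8, and the change was 0.011 ± 0.0823 (adjusted p 0.994). The 3 of smallest p were Rpl22l1, a paralog of a large subunit protein, at -0.18 ± 0.0984, Rpl39, of the large subunit, at -0.17 ± 0.0961, and Rps20, of the small subunit, at -0.15 ± 0.0922 (adjusted p 0.703, 0.716 and 0.760). Rpl22l1 and Rpl39 were lower in all 4 batches with overlapping groups. Of the genes whose start is shown above, Fau, which encodes ribosomal protein S30 fused to a ubiquitin-like protein, changed by 0.066 ± 0.0993. Rpl15 and Rpl35, of the large subunit, changed by 0.021 ± 0.0780 and -0.069 ± 0.0895. The 14 ribosomal protein genes with a tract had a median of -0.052 and those without one -0.036. Over all genes, the 320 with a tract had a median of 0.003, as did the rest. The ribosomal protein genes had a median of 0.125 in DKO against FXS, with 8 higher and 0 lower at an unadjusted p under 0.05, against 5.21% and 4.59% of all genes. The median of the difference between both comparisons was 0.162, and 1 gene had an unadjusted p under 0.05 for it. In footprints of S6K1 against WT the ribosomal protein genes had a median of 0.141. There, 14 of 81 were higher and 0 lower at an unadjusted p under 0.05, against 4.22% and 4.52% of all genes.

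Of 29 genes of glycolysis and the pentose phosphate pathway, 7 were higher (24.1%, against 3.74% of all genes) and 1 was lower (3.45%, against 3.63%) at an unadjusted p under 0.05. In all 4 batches, 10 were higher, against 7.60% of all genes. The median was 0.068, it lay between 0.056 and 0.093 over 15 alternatives, and none was called. Aldoa, the aldolase of muscle and brain, was at 2186, 2704, 2554 and 2604 CPM in WT and 2641, 3100, 2793 and 2649 CPM in the knockout. Eno2, neuronal enolase, was at 739, 871, 875 and 807 CPM in WT and 866, 1002, 914 and 946 in the knockout. Both were higher in the knockout in every batch with overlapping groups, and changed by 0.16 ± 0.0597 and 0.18 ± 0.0611 (adjusted p 0.624 and 0.586). Pkm, pyruvate kinase, changed by 0.15 ± 0.0605. The number of glycolysis genes higher at this p ran from 1 to 9 over the alternatives. DKO against FXS gave a median of 0.035, with 1 of the 29 higher and 0 lower at an unadjusted p under 0.05, against 5.21% and 4.59% of all genes. In footprints the median of the list was 0.013, with 2 higher and 0 lower at an unadjusted p under 0.05, against 4.22% and 4.52% of all genes.

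Of 76 nuclear genes of the respiratory chain, 7 were higher (9.21%, against 3.74% of all genes) and 0 lower (against 3.63%) at an unadjusted p under 0.05. Their median was 0.036, and all 76 intervals lay within 1.5-fold. All counts of higher and lower genes in this paragraph are at that p. Over 15 alternatives the number higher ran from 0 to 14 and the median from -0.013 to 0.091, so its sign turned. Ndufs1, of complex I, changed by 0.17 ± 0.0592, Sdha, of complex II, by 0.15 ± 0.0565, and Uqcrc1, of complex III, by 0.17 ± 0.0638 (adjusted p 0.624 for each). The medians of the batches were 0.157, 0.053, 0.147 and -0.238. Of the 76, 34 were higher and 0 lower in DKO against FXS, against 5.21% and 4.59% of all genes, with a median of 0.144. Among 38 genes of sterol and fatty acid synthesis, 2 were higher and 0 lower, with a median of 0.025. Fasn, the fatty acid synthase, was at 150.3, 209, 222 and 212 CPM in WT and 174, 240.1, 247 and 307 in the knockout, higher in all 4 batches, with a change of 0.28 ± 0.0704 (adjusted p 0.419). Acly, which supplies its cytosolic acetyl-CoA, changed by 0.20 ± 0.0685, and Srebf1, their transcriptional regulator, by 0.17 ± 0.0946. Of 27 genes of purine and pyrimidine synthesis, 3 were higher and 0 lower. Lysosome and autophagy genes (44 tested) had 2 higher and 1 lower, and integrated stress response genes (33 tested) 2 higher and 1 lower, with medians of -0.003 and -0.004.

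At the synapse, 4 of 47 glutamate receptor and postsynaptic genes were higher (8.51%, against 3.74% of all genes) and 0 lower at an unadjusted p under 0.05, around a median of 0.052. The medians of batches 5 to 8 were -0.110, 0.121, -0.011 and 0.187, and over 15 alternatives the median of the list ran from -0.034 to 0.102. DKO against FXS gave a median of -0.002, with 1 higher and 2 lower at that p, against 5.21% and 4.59% of all genes. Footprints of S6K1 against WT gave -0.024, with 0 higher and 2 lower, against 4.22% and 4.52% of all genes. Camk2b, the beta subunit of the calcium/calmodulin kinase of the postsynaptic density, was at 464, 465, 469 and 446 CPM in WT and 541, 527, 523 and 539.5 CPM in the knockout. The groups were tight and did not overlap, and the change was 0.21 ± 0.0637 (p 0.00314, adjusted p 0.517), against 0.11 ± 0.0636 in DKO against FXS and 0.030 ± 0.0766 in footprints. Dlgap1, a scaffold protein, was at 328, 302, 337 and 334 CPM in WT and 382, 358, 339 and 371 in the knockout, again without overlap. Dlgap1 changed by 0.16 ± 0.0610 (adjusted p 0.624), against 0.020 ± 0.0608 in DKO against FXS and -0.135 ± 0.0898 in footprints. Grik3, a kainate receptor subunit, changed by 0.34 ± 0.110. Among 38 presynaptic genes, 2 were higher and 0 lower, among them Rph3a, which acts in vesicle release, at 0.15 ± 0.0675, while Syn1, a protein of synaptic vesicles, stood at 0.15 ± 0.0778 (p 0.0664). None of 30 immediate early genes and none of 19 core circadian clock genes had an unadjusted p under 0.05. Of 18 GABA-A receptor and inhibitory synapse genes, 1 was higher and 0 lower.

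**Figure D4:**
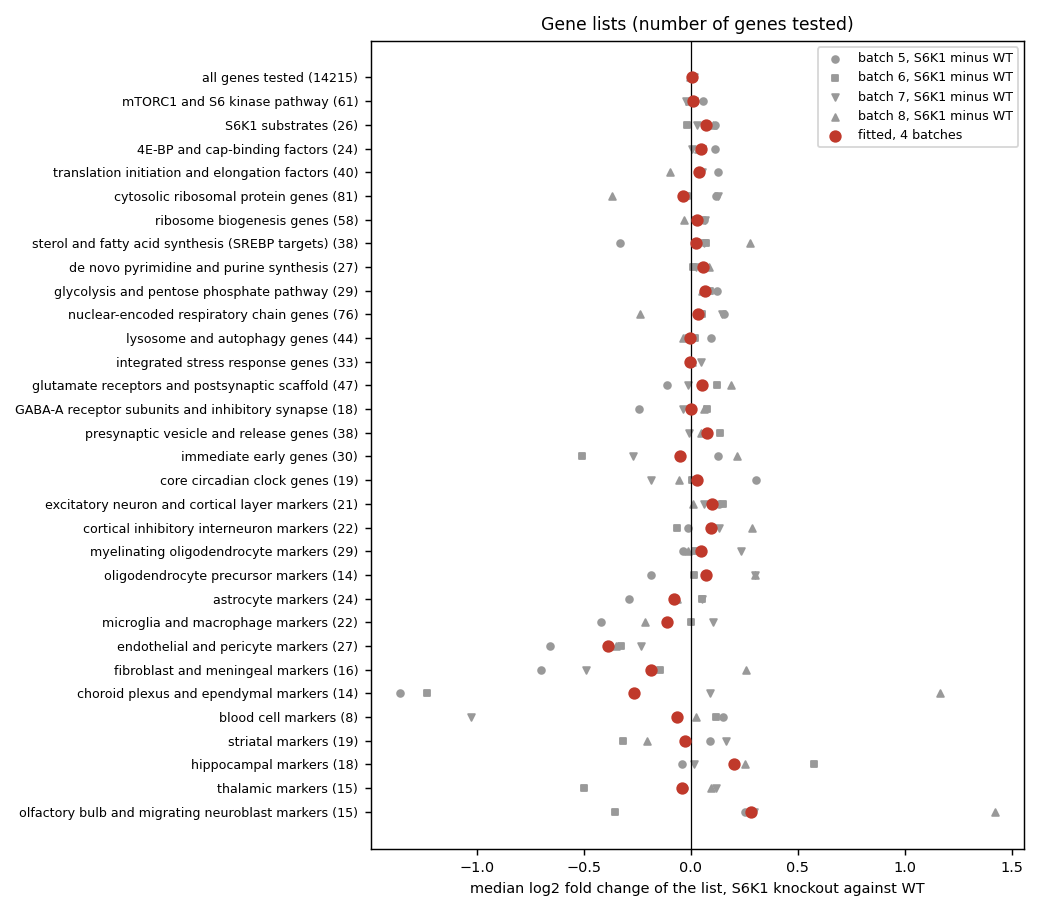
Median log2 fold change of each gene list, S6K1 knockout against WT (horizontal axis), with the number of genes tested in brackets; red points are medians of the fitted changes, grey marks the medians of the difference within each batch. Most medians lie near the 0.004 of all genes while the batches spread around them, and the endothelial and pericyte markers (-0.388) lie below 0 in all 4 batches.

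Most markers of the vessel wall had lower levels in the knockout. Of 27 endothelial and pericyte markers, 23 had a fitted change below 0, and none was called. At an unadjusted p under 0.05, 13 were lower (48.1%, against 3.63% of all genes) and 1 was higher (Pdgfrb). In all 4 batches, 12 were lower, against 6.73% of all genes. The median log2 fold change was -0.388. In batches 5 to 8 the medians were -0.657, -0.324, -0.234 and -0.348. The summed level of the 27 genes was 203, 406, 425 and 508 CPM in WT and 124, 347, 364 and 447 CPM in the knockout. It was lower in the knockout within each batch, while the groups overlapped, with the batch 5 library the lowest of each group and the knockout library of batch 8 above the WT libraries of batches 6 and 7. In bulk tissue, fewer cells of a type and less RNA per cell cannot be told apart.

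Among these markers, Ly6a, a surface protein of brain endothelium, was at 4.24, 17.4, 13.7 and 16.8 CPM in WT and 3.52, 9.49, 6.98 and 10.3 CPM in the knockout, a change of -0.74 ± 0.202 (p 0.00168, adjusted p 0.510). Tek, the angiopoietin receptor Tie2, was at 4.52, 7.97, 8.74 and 10.1 CPM in WT and 1.01, 6.23, 5.30 and 9.01 CPM in the knockout, a change of -0.66 ± 0.219 (p 0.00635, adjusted p 0.577). Both were lower in every batch, with overlapping groups. Slco1a4, given above, had the smallest p of the list. Genes of mural cells were divided, with Acta2 at -0.71 and Rgs5 at -0.30 but Pdgfrb at 0.30 and Kcnj8 at 0.17. In DKO against FXS, 7 of the 27 were lower and 0 higher at an unadjusted p under 0.05, against 4.59% and 5.21% of all genes, and the median was -0.329. Tek changed by -0.54 ± 0.208 there, and Ly6a by -0.27 ± 0.202. The median of the difference between both comparisons was 0.079, with 2 of 27 genes at an unadjusted p under 0.05. In footprints the median was -0.306, with 3 lower and 0 higher at an unadjusted p under 0.05, against 4.52% and 4.22% of all genes. Tek was among the 3 at -1.43 ± 0.402 (p 0.00290), with means of 0.614 CPM in WT and 0.364 in the knockout. Fitted footprint changes of Ly6a (-0.60 ± 0.492) and Slco1a4 (-0.39 ± 0.343) were below 0, though their mean levels were higher in the knockout. Footprint medians were -0.431 for myelinating oligodendrocyte and 0.945 for olfactory and neuroblast markers. Over 15 alternatives the mRNA median of the endothelial and pericyte list ran from -0.466 to -0.317. The number lower at this p ran from 2 (no replicate block) to 16 (WT and S6K1 libraries fitted alone). Without batch 5 the median was -0.317 with 9 lower.

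**Figure D5:**
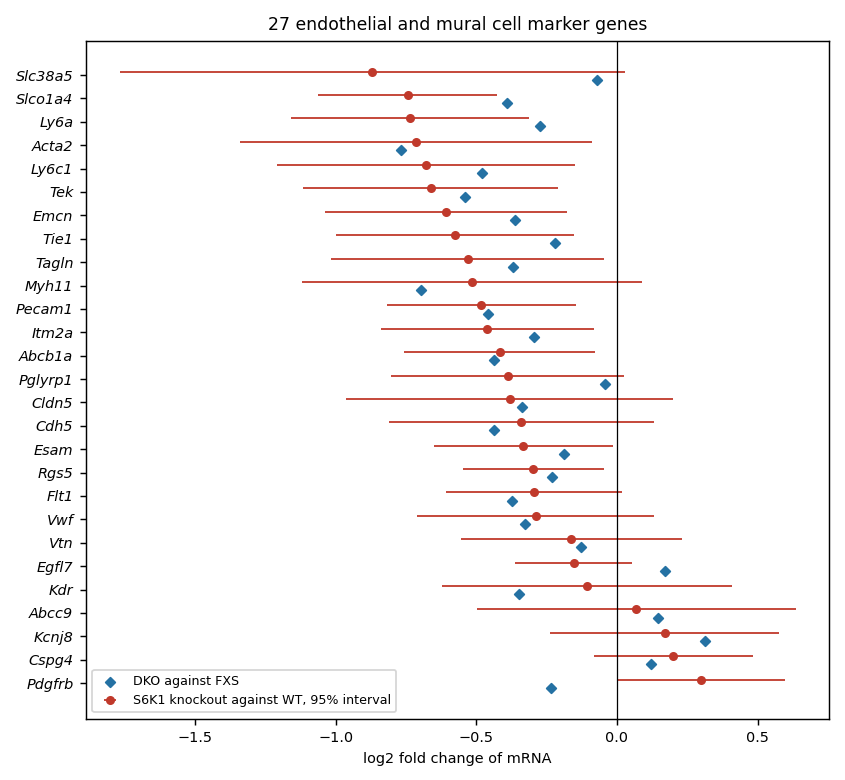
Log2 fold change of 27 endothelial and mural cell markers in S6K1 knockout against WT (red, with 95% intervals) and in DKO against FXS (blue), both on the horizontal axis. Of the red points 23 lie below 0, with a median of -0.388, and the blue points, from other libraries, have a median of -0.329.

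Of 16 fibroblast and meningeal markers, all 16 had a fitted change below 0 (median -0.186), 4 were lower at an unadjusted p under 0.05 (25%, against 3.63% of all genes), and their summed level was 128 to 261 CPM in WT and 76.7 to 317 CPM in the knockout. The median was -0.701, -0.144 and -0.489 in batches 5 to 7 but 0.256 in batch 8. In footprints it was 0.190, with 2 higher and 0 lower at an unadjusted p under 0.05, against 4.22% and 4.52% of all genes. Over 15 alternatives the mRNA median ran from -0.412 to -0.062 and the number lower from 0 to 5. Ogn, an extracellular matrix protein, was at 3.01, 3.55, 7.25 and 5.95 CPM in WT and 1.01, 2.89, 1.85 and 6.07 in the knockout, a change of -0.81 ± 0.345 (adjusted p 0.657). Its knockout library of batch 8 lay inside the WT range and the other 3 below the WT library of the same batch. Igf2, made by meninges and choroid plexus, changed by -0.47 ± 0.171, and Slc22a6, an anion transporter, by -0.48 ± 0.194. Of 14 choroid plexus and ependymal markers tested, 10 were below 0 with a median of -0.265, but the medians of the batches ran from -1.356 to 1.163, and the summed level from 28.0 to 627 CPM in WT and 30.8 to 270 CPM in the knockout. The part of these levels in the changes of vascular markers was not tested.

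The medians of other cell types lay closer to 0, and the counts below stand against 3.74% of all genes higher and 3.63% lower. Microglia and macrophage markers had 18 of 22 below 0 and a median of -0.113, with 1 lower at an unadjusted p under 0.05, Lyve1, at -0.98 ± 0.421. C1qb, of the complement pathway, changed by -0.15 ± 0.0855 and Aif1, which encodes IBA1, by -0.23 ± 0.162, or 0.0013 without batch 5. Astrocyte markers had a median of -0.077 and 1 of 24 higher. Myelinating oligodendrocyte markers had a median of 0.049 with 4 of 29 higher and 1 lower. Among 14 oligodendrocyte precursor markers 3 were higher (Tnr, Sox6 and C1ql1), at 0.23 ± 0.0825, 0.49 ± 0.183 and 0.24 ± 0.109, around a median of 0.073, and the number higher ran from 0 to 3 over 15 alternatives. Excitatory neuron markers had a median of 0.101 with 1 of 21 higher, and interneuron markers a median of 0.096 with 3 of 22 higher. These neuronal lists, with summed levels of 2487 to 3650 CPM and 1341 to 2134 CPM over the 8 libraries, were present throughout, as the labelled cortex requires.

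Markers of neighbouring regions varied from library to library. Of 18 hippocampal markers 15 were above 0 (median 0.204) and 3 were higher at an unadjusted p under 0.05 (against 3.74% of all genes). They were Dsp, at 0.548, 1.34, 0.333 and 1.02 CPM in WT and 0.744, 4.08, 1.09 and 2.14 in the knockout, Fibcd1, with a change of 0.48 ± 0.213, and Iyd, with 0.87 ± 0.415. Batch medians of this list ran from -0.039 to 0.578. For DKO against FXS, 12 of the 18 were below 0 and the median was -0.062. There, 1 was higher and 1 lower at an unadjusted p under 0.05, against 5.21% and 4.59% of all genes. The footprint median of S6K1 against WT was -0.519, with 0 higher and 5 lower at that p, against 4.22% and 4.52% of all genes. Of 15 olfactory bulb and migrating neuroblast markers 11 were above 0 (median 0.283), and Dlx1, Sp9 and Sox11 were higher at 0.32 ± 0.133, 0.39 ± 0.173 and 0.48 ± 0.218. Dlx1, a transcription factor of interneurons that is on both lists, was at 22.3, 24.2, 20.5 and 21.4 CPM in WT and 26.6, 25.8, 25.1 and 33.2 CPM in the knockout, without overlap. Summed levels of the olfactory list were 91.6, 183, 118 and 78.7 CPM in WT and 112, 107, 152 and 210 CPM in the knockout. Striatal and thalamic markers had medians of -0.028 and -0.043. The share of these regions in the dissections was not tested as a source of the differences in neuronal genes.

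The loss of S6K1 could be followed a second time, in libraries that enter neither arm of the comparison above, as DKO against FXS. These mice all lack Fmr1, and the libraries shared the 4 batches and 1 estimate of each gene's spread with those of S6K1 and WT. There, 1394 genes had an unadjusted p under 0.05 (9.81%) and 4 were called (0.0281%): Rps6kb1, Slfn8 and Smg1, a kinase of nonsense-mediated mRNA decay, were lower and Cuedc1 was higher. Rps6kb1 changed by -0.47 ± 0.0768 and Smg1 by -0.39 ± 0.0707 (adjusted p 0.0389), against -0.22 ± 0.0708 in S6K1 against WT. Of the 532 genes higher at an unadjusted p under 0.05 in S6K1 against WT, 423 (79.5%) had a change above 0 in DKO against FXS, against 51.5% of all genes, and 89 (16.7%) were higher there at an unadjusted p under 0.05, against 5.21%. Of the 515 lower genes other than Rps6kb1, 413 (80.2%) were below 0, against 48.5%, and 120 (23.3%) were lower at an unadjusted p under 0.05, against 4.59%. In the opposite direction stood 1 of the 532 and 3 of the 515. Sizes were smaller in DKO against FXS, where the median change was 0.080 for the higher set and -0.15 for the lower set, against 0.20 and -0.34 in the comparison that chose the genes.

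This shared direction was seen on other chromosomes as well. Among genes of other chromosomes or without a known position, 79.6% of the 475 higher genes were above 0 and 79.8% of the 461 lower genes below 0 in DKO against FXS. Within 100 tested genes of Rps6kb1, 6 of 10 higher genes were above 0 and 19 of 21 lower genes below 0. Over both directions the share was 79.8% of 1047 genes, 79.1% when each pair of genotypes was fitted alone, 75.5% without the replicate block and 69.5% without batch 5. In footprints of S6K1 against WT, the higher genes were above 0 in 54.1% of 525 and the lower genes in 37.3% of 475, against 45.6% of all genes. The test of the difference, DKO against FXS minus S6K1 against WT, called 0 genes with edgeR, with DESeq2 and with limma voom, and 497 genes (3.50%) had an unadjusted p under 0.05 for it with edgeR. Among the genes named here, Tnr (-0.37, p 0.00413), Zmiz1 (-0.24, p 0.0203), Aif1 (0.57, p 0.0204), Ucp2 (0.32, p 0.0209), AW551984 (-0.45, p 0.0224), Fibcd1 (-0.73, p 0.0219), Mtor (-0.24, p 0.0328), Pamr1 (0.26, p 0.0395), Wfdc18 (1.52, p 0.0400), Irgm2 (1.24, p 0.0184), Pdgfrb (-0.53, p 0.0137), Pcdhb6 (-0.96, p 0.00867) and Dsp (-1.20, p 0.0496) were among those. Each of these differences is opposite in sign to the gene's change in S6K1 against WT. The genes were named for that change or after their values were seen, and such a choice by itself favours a difference of opposite sign. A response that differs with Fmr1 can therefore not be read from them.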

How the data were processed

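Polyadenylated mRNA of 16 mouse cortex libraries (4 each of WT, FXS, S6K1 and DKO) and footprints of 15 were analysed. The authors deposited raw counts per gene over coding sequence, 20436 symbols in each table. Per the submitters' processing notes, cutadapt 2.0, Bowtie2, TopHat2, RSEM and the mm10 build were used; which tool made the counts, the annotation and the use of strand are not given in the sources used here.

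From these counts, genes were filtered with filterByExpr (minimum count 10, by genotype), scaled by TMM and tested with the quasi-likelihood F-test of edgeR 4.0.16 in R 4.3.3, with genotype and batch in 1 model of all 16 mRNA libraries. Footprints had a model of their own, with genotype and batch. Their batches were not balanced over the genotypes, so a fitted change can differ from the difference of the group means. Called means p under 0.05 after Benjamini-Hochberg adjustment across every gene of the test. Standard errors come from the fold change and its F. Totals per library were 12.1 to 15.1 M counts in the 8 libraries compared, and exact intervals of count ratios cover counting error only. Differences within a batch were taken on log2 CPM with a prior count of 0.5. RefSeq positions (GRCm38.p6) were found for 14176 of 14215 genes. The scripts were tested on simulated data.

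For mRNA, the labels give batch as shared by 1 library of each genotype, which pairs the libraries. Deviations from the group means correlated at 0.10 to 0.54 over the 4 WT and S6K1 pairs of 1 batch, and at -0.30 to 0.19 over 12 pairs of different batches. Only batch 5 stood out, at 0.54. In batches 6 to 8 pairs of 1 batch lay between 0.102 and 0.199, and pairs of different batches among them between 0.019 and 0.192. Between replicates of a genotype, chi-square per degree of freedom was at least 5.43, so none repeated another.

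Genes were named by a rule: Rps6kb1, Rps6kb2 and 15 pathway genes always, all called genes, the 8 higher and 8 lower uncalled genes of smallest p with a mean of at least 5 CPM and 1 direction in all 4 batches, and up to 3 members of smallest p from each of 17 lists. Genes named only to spell out a small count, to contrast members of a list or for their start sequence were chosen after their values were seen. A presynaptic gene that the rule names is counted in its list but not reported here. The comparison, the 32 lists and the tests were chosen with earlier results of these data known. Alternatives were RLE factors, no filter, DESeq2 1.42.0, limma voom (limma 3.58.1), no batch term, the groups alone, no batch 5 and each library left out. The alternatives for the share of genes on the same side in DKO against FXS were chosen after seeing the data.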

Additional observations from a re-analysis of the deposited data

Results flagged for a closer look

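Samples far from the rest of their group were looked for in 160 groups of 4 values, 1 for each of 80 named genes in each genotype, and in 28 groups of summed marker levels. A value was taken as apart where its gap to the nearest other value, divided by the range of the group (on log2 of CPM plus 0.5 for genes), was above Dixon's 95% limit for 4 samples. Chance alone flags about 1 in 20 groups, and 16 were found, 10 of genes and 6 of marker sums. Their explanation was not tested.

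Most of them are libraries of batch 5. In WT, the batch 5 library was the lowest for Eef2k (gap over range 0.964, at 30.9 CPM against 39.1 to 39.5), Fasn (0.846, at 150 CPM against 209 to 222), Slc22a6 (0.884, at 2.53 CPM against 5.76 to 6.38), Syn1 (0.979, at 463 CPM against 615 to 619) and Uqcrc1 (0.847), and the highest for Luc7l3 (0.885). In the S6K1 knockout, the batch 5 library was the lowest for C1qb (0.932, at 20.4 CPM against 61.9 to 67.1) and Pamr1 (0.914, at 23.3 CPM against 50.5 to 54.3).

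Summed marker levels of batch 5 were apart, all of them low, for cortical interneurons in WT (0.860), oligodendrocyte precursors in WT (0.903) and in the knockout (0.856), astrocytes in the knockout (0.957), and microglia and macrophages in WT (0.854) and in the knockout (0.952). The astrocyte sum was 4250 CPM there against 8160 to 8400 in the other knockout libraries.

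In batch 8, the knockout library was the lowest for Rps20, a protein of the small ribosomal subunit (0.887, at 256 CPM against 323 to 333). It was the highest for Epx (1.00), where it held the single count of the 4 knockout libraries.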

How the results depend on the processing

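Numbers of called genes depended on the settings. In mRNA of S6K1 against WT, 3 genes were called, with 5 by DESeq2, 1 with the groups compared alone, 0 without batch 5 and 0 without the replicate block (369 genes at an unadjusted p under 0.05). Leaving out 1 library gave 0 to 3. In DKO against FXS, 4 were called, with 8 without the filter on low counts, 28 by DESeq2, 0 without the replicate block and 2 without batch 5, and 0 to 5 with 1 library left out. In footprints of S6K1 against WT, 1 was called, with 37 by DESeq2 and 22 with the groups alone, and 1 to 3 with 1 library left out. The cause was not tested. The difference of both mRNA comparisons had 0 calls in every setting.

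Without the replicate block, the calls of Rps6kb1, Rad51d and Epx were lost. Their direction held in every setting. Some uncalled genes changed sign. Without batch 5, the log2 fold change was 0.0013 for Aif1, -0.038 for Eef2k, 0.038 for Eif4ebp1 and -0.068 for Rps6, which was -0.011 with the groups alone. With 1 library left out it ran from -0.010 to 0.17 for Eef2k, -0.15 to 0.13 for Eif4ebp1, -0.061 to 0.15 for Eif4ebp2, -0.014 to 0.17 for Irs1, -0.079 to 0.041 for Pdcd4, -0.063 to 0.10 for Rps6, -0.041 to 0.10 for Rptor and -0.052 to 0.076 for Tsc2. Depth limits Epx, Slfn8 and Wfdc18, which rest on 1 to 91 counts over a group.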
